A study of Canis lupus familiaris with 2 samples.

Results

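The subunits of phosphodiesterase 6, the enzyme that hydrolyses cyclic GMP in the outer segments of rods and cones, are encoded by 5 genes, *PDE6A*, *PDE6B*, *PDE6G*, *PDE6C* and *PDE6H*. All 5 were chosen by name, and each has 1 row in both dogs, among 34981 feature rows in N350 and 19947 in N354. Droplet-based single-cell RNA sequencing had been run on 5 mm punches of neuroretina from 2 normal (wild-type) male dogs of 40 weeks, N350 and N354, with no treatment and no affected dog among them. The enzyme sits in the outer segment discs and keeps the concentration of cyclic GMP low in light. In rods the catalytic core is made of the products of *PDE6A* and *PDE6B*, and in cones of the product of *PDE6C* alone, and each core is held inactive by small inhibitory subunits, from *PDE6G* in rods and *PDE6H* in cones. Light-activated transducin draws the inhibitory subunits away, cyclic GMP falls and the cation channels it holds open close. Variants of *PDE6A* and of *PDE6B* are known causes of inherited retinal degeneration in dogs.

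A unique molecular identifier (UMI) marks each captured mRNA molecule, so that copies made by amplification are counted once. N350 had 8900 cells with 24030707 UMIs and N354 had 4392 cells with 9711202 UMIs, and the median cell held 1298 and 1204.5 UMIs. Cells were placed in a class by raw UMIs of marker genes that are not PDE6 genes, which gave 5253 rods and 331 cones in N350 and 2922 rods and 192 cones in N354, beside Müller glia, astrocytes, bipolar cells and amacrine cells in both dogs. The rod markers *SAG*, *GNAT1* and *GNGT1* together held 219 and 438 of every 10000 UMIs in rods of N350 and N354 and 10.8 and 26.9 in Müller glia. The 5 cone markers held 117 and 138 in cones and 1.01 and 0.226 in rods. The files name different gene sets, and dog and gene annotation cannot be told apart in any difference between the dogs. A class entered the comparisons with at least 20 cells in both dogs, which 6 classes had, and the dog, not the cell, was the replicate (n = 2).

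A level below is the number of UMIs of a gene per 10000 UMIs of all genes in the class of 1 dog. Values are given for N350 and then N354, and brackets hold exact 95% intervals for counting error only. The method counts the 3' end of a transcript, so a level is not divided by gene length, and a difference in level between genes also depends on how well each 3' end is annotated. A count of UMIs says nothing of the amount of protein.

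*PDE6A*, the catalytic alpha subunit of rods, had levels of 15.98 (15.7 to 16.3) and 27.4 (26.8 to 27.9) in rods. In cones it had 0.929 (0.785 to 1.09) and 0.910 (0.699 to 1.16), and in Müller glia 0.696 and 1.59. Rods of both dogs were thus above every other class, and the intervals of cones in N350 and N354 overlapped. On the level scale rods held 17.2 (14.6 to 20.4) and 30.1 (23.5 to 39.2) times the level of cones. This factor depended on the choice of cells. In N354 it was 13.8 among cells with at most 10% mitochondrial UMIs (*PDE6A* level in cones 2.03) and 17.0 with a stricter gate (1.62). It was 34.1 there with a looser gate and 36.0 without the 4% of cells with the most UMIs. In N350 it ran from 14.9 with the stricter gate to 22.1 with the looser gate. The stricter gate kept more cones of N354, 201 against 192. By UMIs per cell, where the small size of rods is not divided out, a rod held 1.96 and 3.28 UMIs of *PDE6A* and a cone 0.447 and 0.328.

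*PDE6B*, the catalytic beta subunit of rods, was at 14.2 (13.9 to 14.5) and 17.3 (16.9 to 17.8) in rods. Cones had 2.23 (2.01 to 2.48) and 2.57 (2.21 to 2.98), and Müller glia 0.616 (0.561 to 0.674) and 0.881 (0.784 to 0.986). The level in rods was 6.36 (5.72 to 7.10) and 6.74 (5.81 to 7.87) times that in cones. Rods led in both dogs, cones came next, and the gap between rods and cones was narrower than for *PDE6A*.

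*PDE6G*, the inhibitory gamma subunit of rods, had the highest level of the 3 rod genes, 85.4 (84.7 to 86.1) and 114 (112 to 115) in rods. It was the 10th and the 9th most abundant of the genes with a UMI in rods (18677 and 12627 genes). *PDE6A* came 47th and 28th in that order, and *PDE6B* 56th and 45th. Cones had a *PDE6G* level of 7.05 (6.64 to 7.47) and 5.11 (4.59 to 5.67), above Müller glia in N350 (4.40) and below them in N354 (6.93). With a stricter gate the level in cones was 9.25 and 8.25, and with a looser gate 4.70 and 4.27. The stricter gate raised the marker thresholds of rods and of other classes, and kept 370 and 201 cones, against 331 and 192. It left out 59 and 16 cells for passing several classes, against 298 and 69. The looser gate left out 577 and 132 and kept 273 and 184 cones. A stricter gate was thus not a narrower choice of cones.

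*PDE6C*, the catalytic subunit of cones, had a level of 6.08 (5.70 to 6.48) and 10.3 (9.57 to 11.1) in cones. All rods together held 21 and 6 UMIs of it, a level of 0.0327 (0.0202 to 0.0499) and 0.0171 (0.00629 to 0.0373). Of all UMIs of *PDE6C* in a dog, 89.2% and 85.8% lay in cones, which were 3.72% and 4.38% of the cells. Outside cones, no class held more UMIs than the 35 of Müller glia in either dog, and the cells left out for passing several classes had 44 and 55. By level the order was another in N354. Its 16 horizontal cells held 14 UMIs among 203731 of all genes, a higher level than the 35 among 3416321 of Müller glia.

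*PDE6H*, the inhibitory subunit of cones, was at 279 (276 to 281) and 361 (357 to 366) in cones, and no other gene had more UMIs in cones of either dog. *PDE6C* was 209th and 109th in the same order. A cone held on average 134 and 130 UMIs of *PDE6H*, with a median of 115 and 107.5 and a highest value of 393 and 392 in a cell. In rods the level was 3.17 (3.04 to 3.31) and 0.937 (0.839 to 1.04), and in Müller glia 0.646 and 0.486. Cones held 86.1% and 91.3% of the UMIs of *PDE6H*. The 32 vascular cells of N350 had a level of 4.41, above rods, and the 3 of N354 held 1 UMI. Horizontal cells held 31 UMIs in N350 (94 cells) and 314 in N354 (16 cells, 203731 UMIs of all genes). The 11 microglia of N350 held 1 UMI, and the 5 of N354 held 41 among 9144 UMIs of all genes. By level, horizontal cells and microglia of N354 thus lay above rods of both dogs and above the vascular cells of N350.

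**Figure D1:**
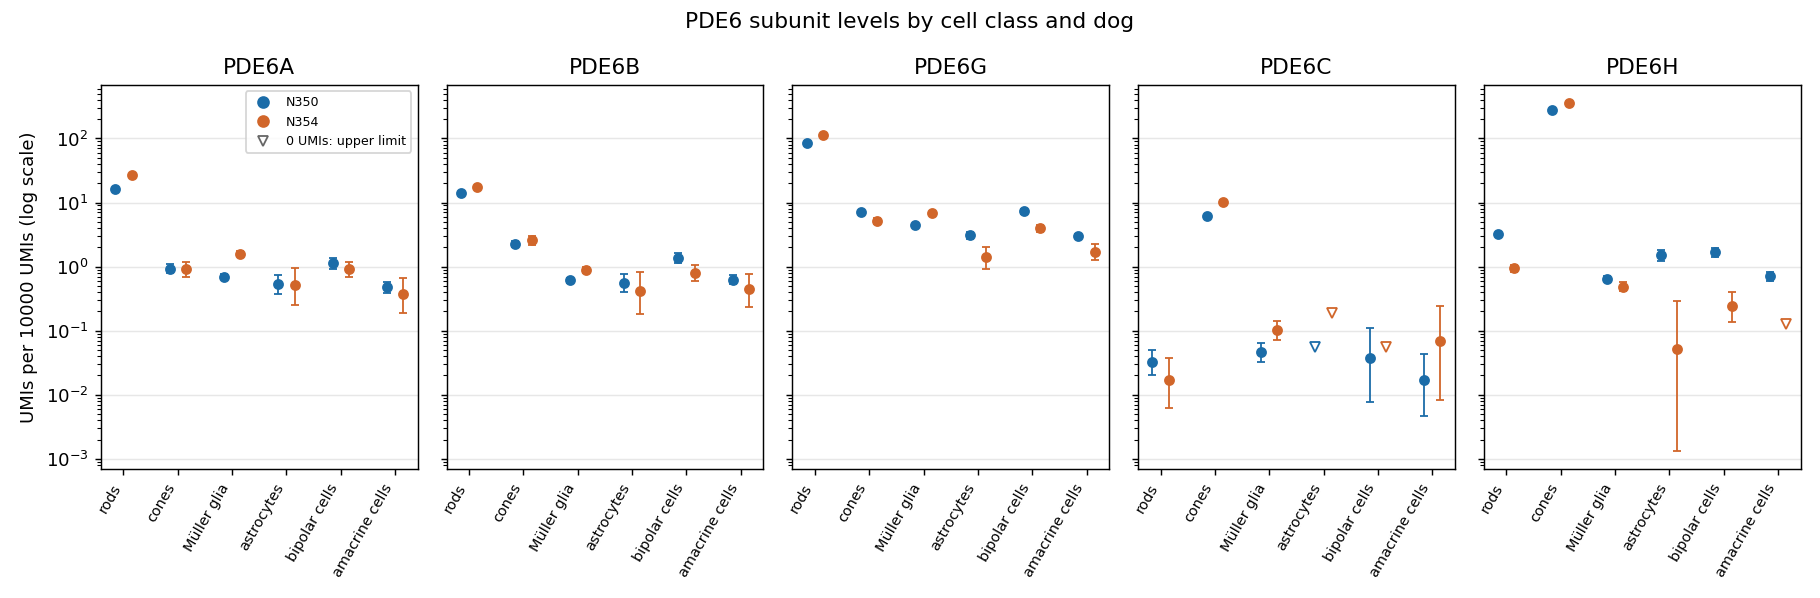
Levels of the 5 PDE6 genes in 6 cell classes (UMIs per 10000 UMIs of all genes, log axis), with a point for each dog and bars for the exact Poisson 95% interval; an open triangle is the upper limit where a class held 0 UMIs. *PDE6A*, *PDE6B* and *PDE6G* were highest in rods of both dogs and *PDE6C* and *PDE6H* in cones, where *PDE6H* reached 279 and 361.

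Summed counts were compared between classes with edgeR's quasi-likelihood test, with p-values adjusted over 11717 genes. For cones over rods, 4 of the 5 members passed an adjusted p of 0.05, against 2.07% of all genes tested (174 higher and 69 lower in cones). Relative to rods, cones had a log2 fold change of −4.58 (SE 0.54, adjusted p = 0.00681) for *PDE6A*, −2.72 (SE 0.44, adjusted p = 0.0198) for *PDE6B* and −4.05 (SE 0.64, adjusted p = 0.0180) for *PDE6G*. It was 8.35 for *PDE6C* (SE 1.04, adjusted p = 0.0113). In each dog by itself these 4 genes went the same way, with differences of −4.04 and −4.96 for *PDE6A* and 7.61 and 9.18 for *PDE6C* on the log2 scale.

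*PDE6H* had a log2 fold change of 7.34 with an SE of 1.98, and did not pass (adjusted p = 0.134, edgeR), although cones were higher in both dogs, by 6.52 in N350 and 8.54 in N354. The dogs differed more in rods, whose *PDE6H* level was 3.17 in N350 and 0.937 in N354, than in cones, where N354 was at 1.30 times the level of N350. With the dog as a block, *PDE6H* passed (log2 fold change 7.78, adjusted p = 2.15e-07), as did 20.9% of all genes. DESeq2, which called 6.08% of all genes, gave 7.47 and an adjusted p of 0.000124. The median of all genes was −0.12 in the main comparison and between −0.15 and 0.07 under the other scalings and cell selections, small beside the changes of the members.

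Müller glia, the main glial cells of the retina, have no phototransduction and served as the class for comparison. In droplet data free RNA can give UMIs in cells that do not express a gene, and its amount was not measured here. For rods over Müller glia, 3 of the 5 members passed, against 16.9% of all genes (edgeR). These were *PDE6A* (log2 fold change 3.79, SE 0.52, adjusted p = 0.00356), *PDE6B* (3.92, SE 0.47, adjusted p = 0.00285) and *PDE6G* (3.66, SE 0.63, adjusted p = 0.00743). The 3 rod genes stood above Müller glia by similar factors, from 16.4 to 23.1 times by level over both dogs. Without scaling factors the median of all genes moved from 0.02 to 0.47 here and from −0.13 to 0.35 for cones over Müller glia. *PDE6C* had −2.02 (adjusted p = 0.135, edgeR) and passed with the dog as a block (−1.77, adjusted p = 0.00160, beside 56.4% of all genes). DESeq2, which called 24.8%, gave −2.16 (adjusted p = 0.0484). Counts of *PDE6C* were low, 21 and 6 UMIs in rods and 35 in Müller glia of each dog. The level in rods was 0.709 (0.392 to 1.25) and 0.167 (0.0575 to 0.402) times that in glia, so the interval of N350 included equal levels. Under a limit of 5% of UMIs from genes named MT-, the 3 rod genes had 4.44, 4.12 and 3.78 and none passed (adjusted p = 0.0888 for each, edgeR). The mitochondrial genes of N350 lack that prefix, so its classes kept all their cells, though its median cell held 6.32% mitochondrial UMIs. The limit thus filtered N354 only, to 1189 rods and 29 Müller glia.

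*PDE6H* in rods had a log2 fold change of 1.32 over Müller glia (SE 1.53, adjusted p = 0.620; adjusted p = 0.113 with the dog as a block). Per cell, rods did not lead. A rod held 0.388 and 0.112 UMIs of *PDE6H*, a Müller cell 0.419 and 0.294, and a bipolar cell 0.401 and 0.0606. Thinned to 1000 UMIs per cell, an expected 14.3% and 3.98% of rods had a UMI of *PDE6H*. The expected shares were 7.10% and 3.82% of Müller glia and 11.1% and 1.49% of bipolar cells. Without thinning these shares were 21.6% and 5.85% of rods (median 1064 and 1019 UMIs per cell) and 23.9% and 12.1% of Müller glia (median 5376 and 5625.5). Rods thus lay above Müller glia by level and, in N350, at equal depth, but not by UMIs per cell, where the ratio of rods to glia was 0.926 (0.838 to 1.02) and 0.381 (0.315 to 0.462). In N350, rods with fewer than 1000 UMIs had a *PDE6H* level of 5.78 and deeper rods 2.21, and in N354 these levels were 1.35 and 0.757. The part of free RNA in the *PDE6H* of rods was not tested.

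For cones over Müller glia, 2 of the 5 members passed, against 9.17% of all genes. *PDE6C* had a log2 fold change of 6.32 (SE 0.95, adjusted p = 0.0109, edgeR) and *PDE6H* 8.67 (SE 2.09, adjusted p = 0.0374). For *PDE6A* it was −0.80 (SE 0.47, adjusted p = 0.359) and for *PDE6G* −0.38 (SE 0.57, adjusted p = 0.772), and neither passed. *PDE6G* differed from glia by 0.17 in N350 and by −0.89 in N354 on the log2 scale, and its sign turned to 0.13 without scaling factors. *PDE6B* had 1.203 (SE 0.42, adjusted p = 0.115), which passed with the dog as a block (1.21, adjusted p = 0.00137, beside 41.5% of all genes) and with DESeq2 (1.24, adjusted p = 0.0127, beside 17.1%).

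The inhibitory and catalytic genes were then set against each other within rods and within cones. In rods, *PDE6G* had 54879 and 39719 UMIs and *PDE6A* and *PDE6B* together 19410 and 15643, a ratio of 2.83 (2.78 to 2.87) and 2.54 (2.49 to 2.59). In cones, *PDE6H* had 44410 and 25022 UMIs and *PDE6C* 969 and 714, a ratio of 45.8 (43.0 to 48.9) and 35.0 (32.5 to 37.8). The surplus of inhibitory over catalytic UMIs was 16.2 times as large in cones as in rods of N350 and 13.8 times in N354. The mean over dogs was 2.68 ± 0.20 (SD, n = 2) in rods and 40.4 ± 7.63 (SD, n = 2) in cones, and rods and cones did not overlap. No test was run on the ratio over 2 dogs, and the values describe these libraries.

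**Figure D2:**
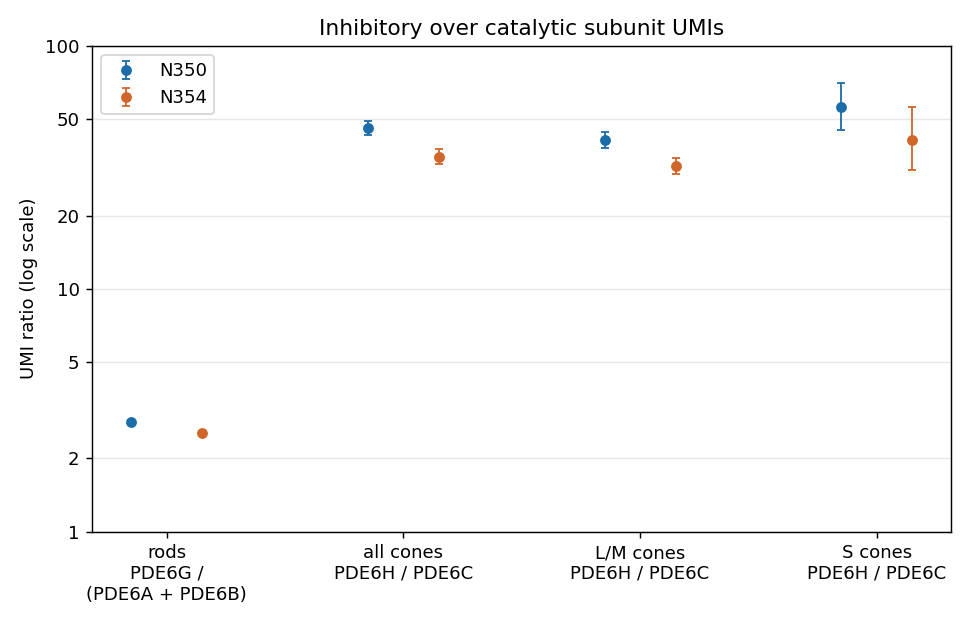
UMIs of the inhibitory subunit over those of the catalytic subunits in rods and in cones (log axis), with a point for each dog and bars for the exact conditional 95% interval. Rods lie at 2.83 and 2.54 and all cones at 45.8 and 35.0, with L/M cones and S cones between 32.0 and 56.0.

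By level, the inhibitory gene was higher in cones than in rods and the catalytic genes lower. *PDE6H* in cones was at 3.26 and 3.18 times the level of *PDE6G* in rods, and *PDE6C* in cones at 0.201 and 0.231 times the summed level of *PDE6A* and *PDE6B* in rods. Both shifts had nearly the same size in N350 and N354. All 5 genes summed took 119 and 159 of every 10000 UMIs in rods and 295 and 380 in cones.

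Within rods, the catalytic genes were not equal in UMIs. *PDE6A* had 1.12 (1.09 to 1.16) UMIs for each of *PDE6B* in N350 and 1.58 (1.53 to 1.63) in N354, so that the alpha subunit led in both dogs but by different amounts. Among rods with fewer than 1000 UMIs, *PDE6A* did not lead in N350 (2600 UMIs against 2613 of *PDE6B*). It led in those of N354 (2803 against 1903). *PDE6A* differed most between the dogs among the 3 rod genes, with a level in rods of N354 at 1.71 (1.67 to 1.76) times that of N350, against 1.22 (1.18 to 1.26) for *PDE6B* and 1.33 (1.31 to 1.35) for *PDE6G*. Dog and gene annotation cannot be told apart here.

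Most rods held all 3 rod genes. *PDE6A*, *PDE6B* and *PDE6G* were found together in 61.3% (59.9 to 62.6) and 74.5% (72.9 to 76.1) of rods. Among rods with at least 2000 UMIs, 479 and 217 cells, the shares were 90.2% (87.2 to 92.7) and 96.3% (92.9 to 98.4), above those of all rods. Of the 5253 and 2922 rods, 16 and 2 held none of the 3 genes, and none of the deeper rods did, which allows a share of up to 0.626% of 479 and 1.38% of 217. For comparison, *PDE6G* was found in 66.7% and 50.5% of Müller glia, and at 1000 UMIs per cell in 31.1% and 29.1%, against 99.9% of rods in both dogs.

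Splitting rods at the median share of mitochondrial UMIs (5.12% and 6.13%) moved the genes unevenly. *PDE6B* was at 15.9 and 19.4 in the lower group and 12.7 and 15.8 in the upper. *PDE6G* was at 84.6 and 102 in the lower group and 86.1 and 122 in the upper, and *PDE6A* at 17.3 and 27.8 against 14.9 and 27.1. *PDE6B* was lower in rods with more mitochondrial RNA in both dogs, while *PDE6G* was higher there, with intervals that overlapped in N350 and not in N354. The part of the mitochondrial share in these levels was not tested.

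Cones also held *PDE6B* in a proportion to *PDE6A* that rods did not have, a comparison singled out after its values were seen. In cones, *PDE6B* had 356 and 178 UMIs and *PDE6A* 148 and 63, a ratio of 2.41 (1.98 to 2.93) and 2.83 (2.11 to 3.83). The ratio was 0.890 (0.865 to 0.915) and 0.633 (0.613 to 0.654) in rods and 0.885 (0.780 to 1.004) and 0.554 (0.480 to 0.639) in Müller glia. The intervals of glia and rods overlapped in each dog, whereas the ratio in cones was 2.70 and 4.46 times that of rods. In bipolar cells it was 1.22 and 0.883, in amacrine cells 1.32 and 1.18, and in astrocytes 1.06 and 0.800, each below cones of the same dog. The intervals of amacrine cells and astrocytes of N354, with 11 and 10 UMIs of *PDE6A*, reached into that of cones.

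**Figure D3:**
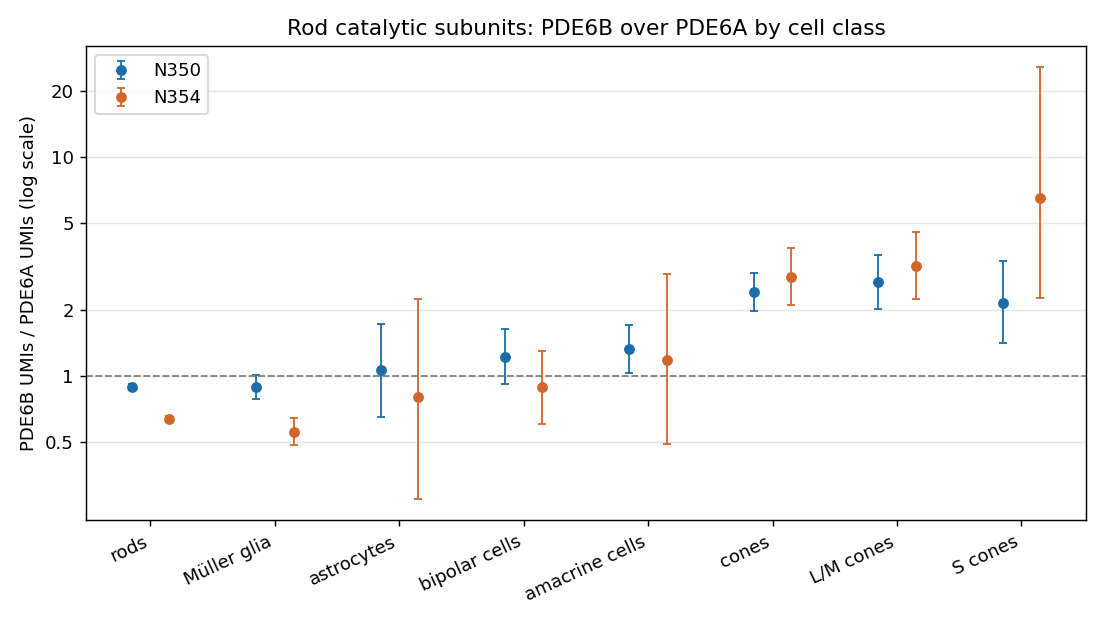
UMIs of *PDE6B* over those of *PDE6A* by cell class (log axis, dashed line at 1), with a point for each dog and bars for the exact conditional 95% interval. Cones lie at 2.41 and 2.83, above rods at 0.890 and 0.633 and Müller glia at 0.885 and 0.554.

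A cone held 1.08 and 0.927 UMIs of *PDE6B*, against 0.3997 and 0.534 in a Müller cell, although Müller glia had the higher median depth (5376 and 5625.5 against 4434 and 3247.5 UMIs). At 1000 UMIs per cell, 20.7% and 23.6% of cones had a UMI of *PDE6B*, against 7.69% and 7.51% of Müller glia, 11.3% and 6.74% of bipolar cells and 74.5% and 81.7% of rods. For *PDE6A* the shares were 10.7% and 8.70% of cones against 7.67% and 11.5% of Müller glia. *PDE6B* thus stood above Müller glia in cones of both dogs and *PDE6A* did not in N354. The ratio depended on the choice of cones, and ranged over the cell selections tried from 2.17 to 2.83 in N350 and from 1.36 (at most 10% mitochondrial UMIs) to 3.32 (without the 4% of cells with the most UMIs) in N354. It was above 1 in each, while *PDE6A* led *PDE6B* in rods of both dogs in each. The value of 1.36 rests on 51 cones of N354, and its counting error was not computed. Whether it differs from 1 beyond counting error was not tested. Among the shallow cones with equal UMIs of both opsins, described next, N350 had a ratio of 2.17 (1.49 to 3.20) and N354 of 0.714 (0.284 to 1.73), the latter on 10 UMIs of *PDE6B* and 14 of *PDE6A*.

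Cones were divided by their opsin UMIs into L/M cones (more *OPN1LW*, the opsin of longer wavelengths) and S cones (more *OPN1SW*, the opsin of short wavelengths). There were 142 and 113 L/M cones and 58 and 16 S cones, and the 16 S cones of N354 fall under the minimum of 20 cells set for a class. The other 131 and 63 cones had equal UMIs of both opsins, nearly all 0, and were shallow, with a median of 1424 and 683 UMIs. Together they held 1 UMI of each opsin in N350 and 0 in N354, so their cone type is not known. *PDE6C* was at 7.33 (6.80 to 7.90) and 11.8 (10.9 to 12.7) in L/M cones and at 3.34 (2.66 to 4.13) and 5.50 (4.04 to 7.32) in S cones. The level in S cones was 0.455 (0.359 to 0.570) and 0.466 (0.339 to 0.628) times that in L/M cones, nearly the same factor in both dogs.

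*PDE6H* was at 301 and 377 in L/M cones and 187 and 226 in S cones, which is 0.619 (0.6004 to 0.639) and 0.5997 (0.572 to 0.628) times. Both cone genes were thus lower in S cones of both dogs. So were the cone markers *ARR3*, *GNAT2* and *GNGT2* together, at 77.5 and 91.3 in S cones and 112 and 127 in L/M cones. These markers and both opsins make up the cone gate, so their levels in the cone types depend in part on the gate. Whether a lower level in S cones was particular to the PDE6 genes was not tested. The ratio of *PDE6H* to *PDE6C* was 56.0 (45.2 to 70.2) and 41.1 (30.8 to 56.2) in S cones and 41.1 (38.1 to 44.4) and 32.0 (29.6 to 34.7) in L/M cones. The intervals of the ratio overlapped in N354 and not in N350. Cones with equal opsin UMIs had a *PDE6C* level of 4.77 (4.10 to 5.51) and 4.56 (3.10 to 6.48), also below L/M cones and, in N354, within the interval of S cones. Their *PDE6H* level was 283 and 404, above S cones in both dogs.

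*PDE6G* went the other way. It was at 17.2 (15.7 to 18.9) and 6.20 (4.65 to 8.11) in S cones and 3.35 (2.997 to 3.74) and 4.12 (3.59 to 4.70) in L/M cones, a factor of 5.14 (4.44 to 5.95) and 1.51 (1.09 to 2.04). In N354 all 53 UMIs lay in 7 of the 16 S cones. Cones with equal opsin UMIs had 9.51 (8.56 to 10.5) and 11.6 (9.21 to 14.5), above L/M cones in both dogs and above S cones in N354. Their cone type is not known, so whether a higher *PDE6G* level was particular to S cones cannot be told. For each UMI of *PDE6A* there were 12.9 (9.10 to 18.9) and 13.25 (4.88 to 50.4) UMIs of *PDE6G* in S cones, the second on 4 UMIs of *PDE6A*, 4.46 (3.44 to 5.84) and 4.93 (3.57 to 6.96) in L/M cones, and 5.34 (5.23 to 5.46) and 4.15 (4.06 to 4.24) in rods. The intervals of L/M cones reached those of rods in both dogs, and S cones lay above L/M cones in N350, while in N354 their intervals overlapped. For each UMI of *PDE6B* the order was another, with 6.01 (4.68 to 7.81) and 2.04 (1.25 to 3.40) UMIs of *PDE6G* in S cones, 1.67 (1.39 to 2.01) and 1.56 (1.26 to 1.94) in L/M cones, and 6.01 (5.87 to 6.14) and 6.55 (6.37 to 6.73) in rods. Against *PDE6B*, S cones thus lay within counting error of rods in N350 and below them in N354.

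The rod transducin markers had the order of *PDE6G* across S cones, L/M cones and cones with equal opsin UMIs in both dogs, and *SAG* in N350 only. *GNAT1* and *GNGT1*, the rod transducin alpha and gamma genes, together had 17.0 and 19.9 UMIs per 10000 in S cones and 4.75 and 11.6 in L/M cones. *SAG*, which encodes rod arrestin, had 45.1 and 52.3 in S cones and 3.604 and 4.5997 in L/M cones. In cones with equal opsin UMIs the transducin genes had 12.5 and 30.9 and *SAG* 7.60 and 10.5. In rods the transducin genes had 121 and 312 and *SAG* 97.5 and 127. *SAG* was thus below the transducin genes in rods and above them in S cones of both dogs. These genes are markers of the rod gate, and cells that passed both rods and cones were left out. Their levels in rods and in the cone types therefore depend in part on the gate. S cones were also shallower than L/M cones, with a median of 3876 against 7474 UMIs in N350 and 4923.5 against 4997 in N354. The part of rod RNA in the *PDE6G* of these cones was not tested.

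**Figure D4:**
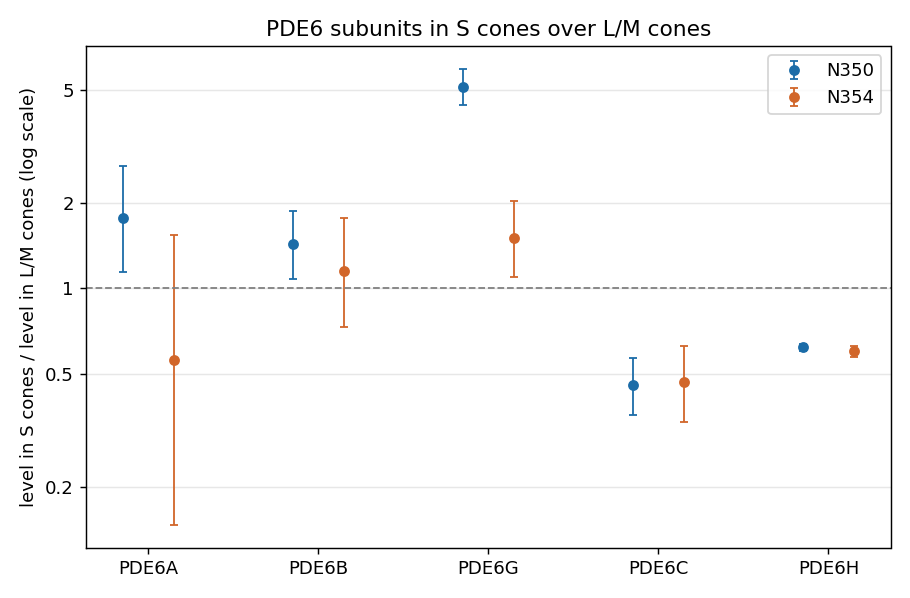
Level in S cones over level in L/M cones for the 5 PDE6 genes (log axis, dashed line at 1), with a point for each dog and bars for the exact conditional 95% interval. *PDE6C* lies at 0.455 and 0.466 and *PDE6H* at 0.619 and 0.5997, below 1 in both dogs, and *PDE6G* at 5.14 and 1.51, above 1.

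The other genes of the cyclic GMP pathway were read from 5 lists, and their calls stand beside 2.07% of all genes called by edgeR, 6.08% by DESeq2 and 20.9% with the dog as a block. Of the genes for assembly and transport of PDE6, 6 of 9 were tested and none was called between cones and rods by edgeR. None reached an unadjusted p of 0.05 and DESeq2 called none, while the fit with the dog as a block called 2, near its share of all genes (20.9%). *UNC119*, a carrier of acylated proteins, had levels of 71.5 and 8.51 in rods and 40.1 and 3.93 in cones, a wider gap between dogs than between classes. *ARL3*, the small GTPase that releases cargo from such carriers, had 6.52 and 10.0 in rods and 6.59 and 10.4 in cones. The list had a median log2 fold change of −0.28, beside −0.12 for all genes.

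Of the genes for cyclic GMP synthesis, 5 of 6 were tested, with a median of −0.96, and 1 was called, lower in cones. DESeq2 called 2, and the block 2 higher and 2 lower. *GUCY2F*, a guanylate cyclase of photoreceptors, had levels of 0.636 and 0.917 in rods and 0.0125 and 0.0144 in cones (log2 fold change −5.83, SE 0.77, adjusted p = 0.0107). Of 9 genes for transducin subunits and shutoff, all tested, with a median of −0.61, 1 was higher and 1 lower in cones. DESeq2 called 4, and the block 2 higher and 4 lower. *GRK7*, an opsin kinase, was at 0.0622 and 0.0286 in rods and 6.29 and 7.003 in cones (7.20, SE 0.72, adjusted p = 0.00665). *GNB1*, the transducin beta subunit of rods, was at 13.2 and 18.8 in rods and 0.740 and 0.794 in cones (−4.40, SE 0.45, adjusted p = 0.00665).

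Channels and exchangers, the targets downstream of cyclic GMP, changed in both directions, and those that passed were higher in the photoreceptor they are known from. Of 6 genes, all tested, with a median of 2.03, 3 were higher and 2 lower in cones. DESeq2 called all 6, and the block 3 higher and 3 lower. *CNGA3* and *CNGB3*, the channel subunits of cones, had log2 fold changes of 9.62 (SE 1.18, adjusted p = 0.0215) and 9.53 (SE 0.93, adjusted p = 0.00647), and rods held 2 and 0 UMIs of *CNGA3* and 2 and 1 of *CNGB3*. *SLC24A2*, the sodium, calcium and potassium exchanger of cones, had 7.53 (SE 1.47, adjusted p = 0.0389), on 8 and 0 UMIs in rods. *CNGA1*, a channel subunit of rods, had −4.41 (SE 0.54, adjusted p = 0.00752), close to *PDE6G* and *PDE6A*. *SLC24A1*, the exchanger of rods, had −4.40 (SE 0.52, adjusted p = 0.00681).

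Phosphodiesterase genes outside the PDE6 family summed to levels of 3.72 and 3.02 in rods, 5.06 and 2.57 in cones and 2.50 and 2.82 in Müller glia. Rods were above Müller glia in both dogs, and cones were above them in N350 and below them in N354. The genes outside the family were a small share in photoreceptors, where PDE6 was high. The PDE6 genes made up 97.0% and 98.1% of the UMIs of all phosphodiesterase genes in rods and 98.3% and 99.3% in cones, against 71.9% and 77.9% in Müller glia and 46.8% and 26.5% in amacrine cells. Of 19 other phosphodiesterase genes, 16 were tested, with a median of 0.37, and 2 were higher and 1 lower in cones. DESeq2 called 4, and the block 3 higher and 2 lower. *PDE1C*, which is activated by calmodulin, was at 0.0249 and 0.00572 in rods and 2.69 and 1.33 in cones (log2 fold change 6.96, SE 0.79, adjusted p = 0.00786). *PDE4B*, specific for cyclic AMP, was at 0.0529 and 0.0171 in rods and 0.326 and 0.361 in cones (3.29, SE 0.56, adjusted p = 0.0239), and *PDE8A*, also specific for cyclic AMP, at 1.41 and 2.13 in rods and 0.195 and 0.159 in cones (−3.33, SE 0.56, adjusted p = 0.0225). In cones, *PDE1C* was thus the phosphodiesterase gene outside the family that passed with the highest level, below *PDE6C* in both dogs.

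**Figure D5:**
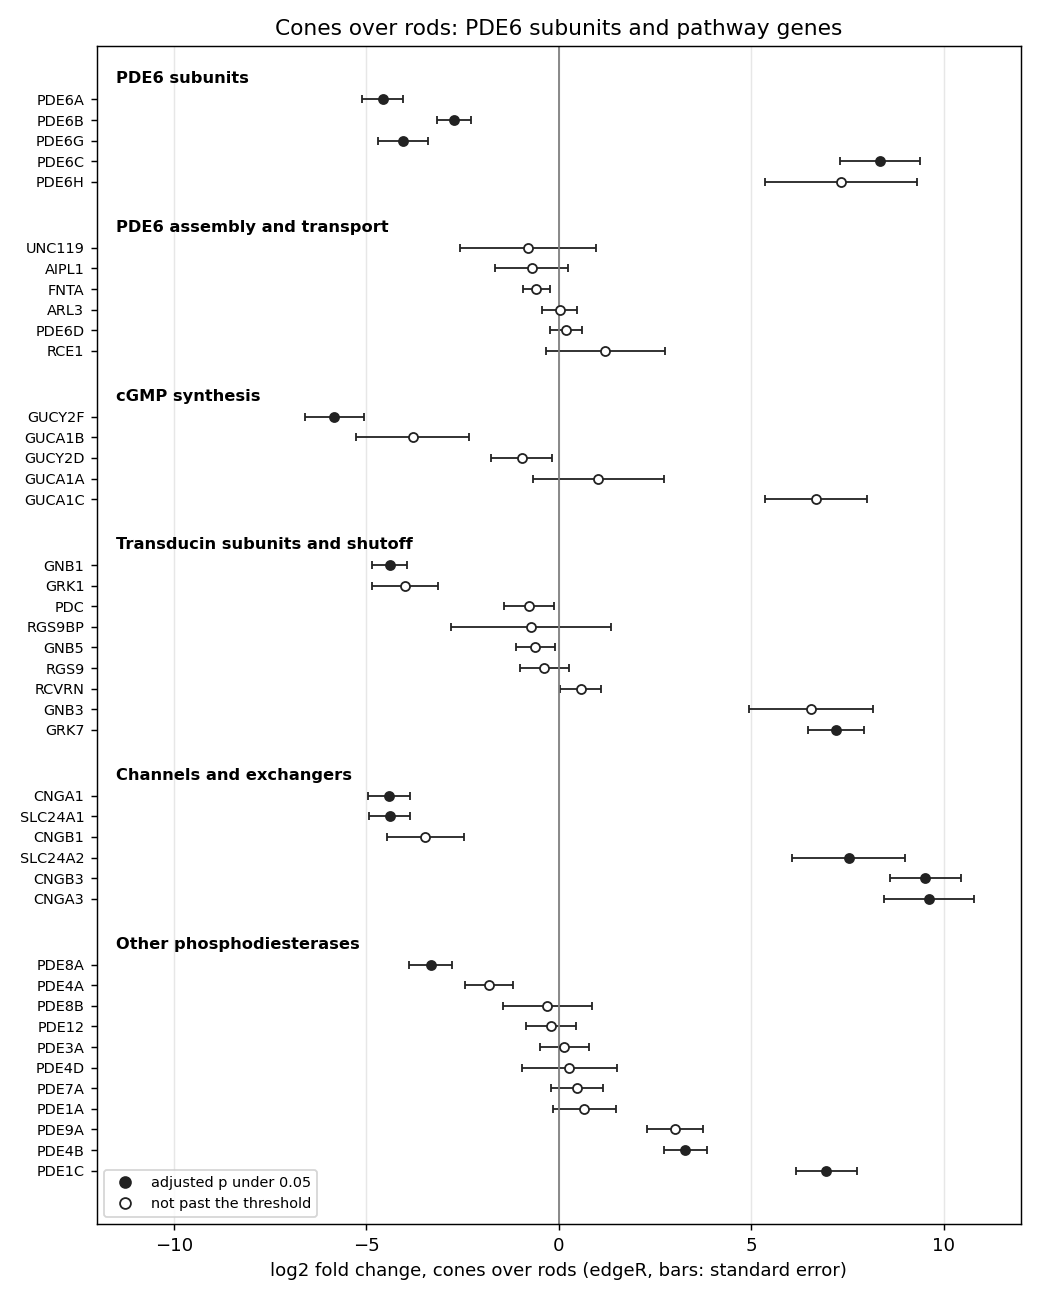
Log2 fold change of cones over rods (edgeR) for the 5 PDE6 genes and 37 pathway genes with at least 20 UMIs in rods and cones; bars are standard errors, and filled points passed an adjusted p of 0.05. *PDE6A*, *PDE6B* and *PDE6G* lie between −4.58 and −2.72 beside *CNGA1*, *SLC24A1* and *GNB1*, and *PDE6C* at 8.35 lies near *CNGA3*, *CNGB3* and *GRK7*.

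Likeness of pattern was measured by Pearson's r of log2 levels over 12 sums (6 classes in 2 dogs), among 6525 genes, and is a description only, since the sums of a dog share a library and the classes share depth. *SLC24A1* was most like *PDE6A* (r = 0.989), followed by *CLUL1* and *EMB*. *AGPAT3*, an acyltransferase of phospholipid synthesis, was most like *PDE6B* (r = 0.989), followed by *ROM1*, a protein of the disc rim, and *PLA2R1*. *CNGA1* was most like *PDE6G* (r = 0.982), followed by *EMB* and *SAP25*. *CNGA3* was most like *PDE6C* (r = 0.942), followed by *ATP6V1C2* and *GRK7*. *ATP6V1C2*, a subunit of the vacuolar proton pump, was most like *PDE6H* (r = 0.929), followed by *LY96* and *GUK1*. *AGPAT3* was at 17.3 and 18.3 in rods, 4.32 and 3.64 in cones and 1.90 and 2.18 in Müller glia, the same order as *PDE6B* in both dogs.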

How the data were processed

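Libraries were 10x 3' v3.1, and the deposited files hold raw UMI counts per gene and cell, which the authors made with Cell Ranger 6.0.2. No reads were reprocessed. The members and gene lists were chosen with earlier results of these data known. Cells with under 200 genes were left out (5 per dog). A cell joined a class with at least 3 UMIs from 2 markers, an enrichment of the marker list of at least 0.6 for rods and 2 for others, and 2 times the next class. Cells that passed rods and another class, or several with none 2 times the next, were left out as mixed (298 and 69). Cells of no class were left out too (912 and 265). Of the markers used in the gate, 1 is not reported here. No doublet caller was run. Median cells held 6.32% and 7.80% mitochondrial UMIs, and no limit was set, since the study's limit left 1 cone in N354. The dogs shared 6 barcodes. N354 has 4169 rows without a symbol.

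Counts were summed per class and dog (12 sums) and fitted with edgeR 4.0.16 (TMM, quasi-likelihood, Benjamini-Hochberg, R 4.3.3) over 11717 genes with at least 10 UMIs over all sums and 1 in each dog. SE is the log2 fold change over the root of F. Where nothing says otherwise, all p-values in the text come from this fit. DESeq2 1.42.0 and a block for dog were alternatives. The main fit and DESeq2 had the class as their only term, so differences between the dogs entered their spread. The pairing comes from the design, since classes of a number are the same animal, and deviations from class means correlated at 0.566 to 0.818. Intervals are exact Poisson for levels, Clopper-Pearson for shares and conditional binomial for ratios. Shares at 1000 UMIs per cell are expected values after thinning, from the hypergeometric probability of each cell, with no draw made. Cells with fewer UMIs were left out there, 2316 and 1408 rods, 43 and 62 cones and 138 and 61 Müller glia. Genes named beside the members were up to 4 per list by size of change among those passing, or the 2 with the most UMIs where none passed, and the 3 most like each member (pseudocount 0.01). The fits were tested on simulated data. There the main fit missed many of the genes that had been changed, so a gene that did not pass may still differ. The fit with the dog as a block recovered all of them, with some false calls.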

Additional observations from a re-analysis of the deposited data

How the results depend on the processing

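With 2 dogs, p-values rest on little replication, and dog cannot be told apart from gene annotation. Intervals cover counting error only. *PDE6A*, *PDE6B*, *PDE6G* and *PDE6C* passed between cones and rods in all 12 alternatives with a test. With the dog as a replicate block, *PDE6H* in cones over rods had 7.78 (adjusted p = 2.15e-07, edgeR), *PDE6C* in rods over Müller glia −1.77 and *PDE6B* in cones over Müller glia 1.21, all passing, and calls were 2454 for cones over rods (243 without the block), 6608 for rods over Müller glia (1976) and 4862 for cones over Müller glia (1075). The block changed no other call of a member. DESeq2 gave 7.47, −2.16 and 1.24 for the same 3 members, all passing, and 712 calls for cones over rods and 2007 for cones over Müller glia. Without scaling factors, chosen after seeing the data, cones over Müller glia gave 1.70 for *PDE6B*, which passed, and 0.13 for *PDE6G*, whose sign turned. Its sign also turned with the stricter gate (0.25), and the looser gate gave 1.55 for *PDE6B*, which passed.

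Keeping cells under 5% of UMIs from genes named MT-, which filtered N354 only, left 1 cone in N354, so cones were not run. Rods over Müller glia then gave 4.44 for *PDE6A*, 4.12 for *PDE6B* and 3.78 for *PDE6G*, none passing, with 0 genes called by edgeR (2270 at an unadjusted p under 0.05; DESeq2 was not run on these cells), and *PDE6G* over *PDE6A* and *PDE6B* in rods had a mean of 2.47. At most 10% mitochondrial UMIs left 690 calls for cones over Müller glia. *PDE6B* over *PDE6A* in cones had a mean of 1.85 there, 1.95 with the stricter gate, 2.99 with the looser gate and 2.94 without the 4% of cells with the most UMIs. The cause was not tested for any of these. Leaving out a dog leaves no spread within a class and gives values with no test, from −4.96 to −4.04 for *PDE6A* in cones over rods, −2.97 to −1.07 for *PDE6C* in rods over Müller glia and −1.25 to −0.10 for *PDE6A* in cones over Müller glia.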
